A study of Mus musculus with 17 samples.

Results

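Fibroblast growth factors signal through a short cascade with a built-in brake. An FGF ligand binds its receptor together with heparan sulphate, the receptor activates RAS, RAF, MEK and ERK, and active ERK switches on genes whose products damp the same cascade. In mouse embryonic stem (ES) cells the main ligand made by the cells themselves is FGF4, and ERK activity is known to move the cells out of the naive state towards the formative epiblast. The genes described here are 10 parts of that circuit, chosen by name: the ligands Fgf4, Fgf8, Fgf15 and Fgf17, the Sprouty inhibitors Spry2 and Spry4, the ERK phosphatases Dusp4 and Dusp6, and the ETS transcription factors Etv4 and Etv5, which are induced by FGF signalling. All 10 had values and all 10 passed the filter on low counts, out of 53588 gene symbols in the tables and 19796 genes tested.

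The data are RNA-seq libraries, made from polyA-selected RNA with a strand-specific kit, of 5 transgenic lines of MC1 mouse ES cells (129S6/SvEvTac). Each line, iFoxA1, iFoxC1, iFoxG1, iFoxL2 or iFoxP3, carries 1 tagged Forkhead transcription factor and a puromycin resistance gene at Rosa26, and doxycycline represses the factor. At 24 h the doxycycline had been washed out and the cells had grown in differentiation medium with 10% serum; at 0 h they were in ES medium with 15% serum, LIF, 0.2 µg/ml doxycycline and puromycin. There were 11 libraries at 24 h (3 of iFoxA1 and 2 of each other line) and 6 at 0 h (2 of iFoxA1 and 1 of each other line). The factor's induction and the change of medium came together in every line and no line without a transgene was used here, so the 2 cannot be told apart. Whether libraries of a group came from separate cultures is not stated, so the p-values measure the spread between libraries only.

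The libraries held 17664083 to 37174469 counts. The 5 deeper ones, with 32939947 counts or more against at most 22155036 in the others, were all at 24 h (iFoxA1 library 3 and library 2 of each other line). Foxa1, Foxc1, Foxl2 and Foxp3 were each higher at 24 h in the line named for them, but unevenly: per 1000000 counts, Foxl2 had 160 and 10.2 in iFoxL2 libraries 1 and 2 at 24 h, against 1.12 at 0 h, and Foxa1 had 247, 266 and 69.8 in iFoxA1 libraries 1, 2 and 3 at 24 h, against 1.94 and 3.19 at 0 h. All 8 ES cell markers were above 1 CPM (counts per 1000000 counts of the scaled library) at both times, with summed levels of 2466 to 5234 CPM at 24 h and 4574 to 5656 CPM at 0 h. The 8 formative epiblast markers, 1 of them Fgf5, summed to 739.5 to 1974 CPM at 24 h and 235.9 to 552.1 CPM at 0 h. Primitive endoderm markers were high in iFoxA1 at both times (Gata6 at 25.1, 23.8 and 15.6 CPM at 24 h, and at 11.6 and 13.5 CPM at 0 h). Between the times they moved both ways in that line. Gata6 was higher in every library at 24 h, while Gata4, Sox17, Pdgfra, Foxq1 and Sox7 were lower in every one. Dab2 and Cubn were higher in libraries 1 and 2 and lower in library 3. Of the fibroblast and primitive streak lists, 2 of 8 and 1 of 8 markers were above 1 CPM, and no marker of any list was at 0 in all libraries. Of the early neural list 3 of 8 markers were above 1 CPM at both times. Of the trophoblast list 6 of 8 were at 24 h and 4 of 8 at 0 h, with the highest sum, 126.5 CPM, in iFoxC1 library 2 at 24 h. The part of these other cell types and of depth in the results below was not tested, and in bulk RNA fewer cells of a type and less RNA per cell cannot be told apart.

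Promoter stretches are shown first for the members whose window held a Capicua octamer or a forkhead core, so they were chosen by these matches. ERK is known to act on several FGF feedback genes through the repressor Capicua, which binds the octamers TGAATGAA, TGAATGGA, TCAATGAA and TCAATGGA. Every line carries a forkhead factor, whose family binds cores such as TGTTTAC and TGTTTGC. RefSeq promoter windows (GRCm38.p6, 250 bases before to 50 after the start) were at hand for 4 of the 10 members: Fgf4, Spry2, Dusp6 and, with 2 windows, Etv5. Both strands were searched, and capitals mark the matches. Below, Dusp6 is chr10:99263031-99263240 on the plus strand, Spry2 is chr14:105896810-105896939 on the minus strand, and Etv5 is chr16:22439720-22439820 on the minus strand, directly upstream of the GENCODE start of the main Etv5 transcript.
Dusp6: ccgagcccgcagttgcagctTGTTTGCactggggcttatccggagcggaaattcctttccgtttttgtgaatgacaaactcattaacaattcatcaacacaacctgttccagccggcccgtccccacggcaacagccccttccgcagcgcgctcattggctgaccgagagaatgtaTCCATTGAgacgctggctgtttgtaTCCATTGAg
Spry2: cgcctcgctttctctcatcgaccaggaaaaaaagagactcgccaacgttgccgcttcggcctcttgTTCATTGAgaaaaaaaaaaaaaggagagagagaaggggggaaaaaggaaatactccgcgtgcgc
Etv5: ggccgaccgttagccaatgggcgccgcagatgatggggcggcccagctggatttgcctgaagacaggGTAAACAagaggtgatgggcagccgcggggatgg

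The Dusp6 window held TCAATGGA on the opposite strand at 2 places, 24 bases before the start and from the second transcribed base, and the forkhead core TGTTTGC 180 bases before it. The Spry2 window held TCAATGAA on the opposite strand 54 bases before the start. Neither Etv5 window nor the Fgf4 window held a Capicua octamer, and 1 Etv5 window held TGTTTAC on the opposite strand, 183 bases before its RefSeq start. No matches overlapped. Of all 32851 RefSeq windows, 3.84% held at least 1 of the 4 octamers, 0.183% held at least 2 matches, 3.65% held TGTTTAC and 5.07% held TGTTTGC. These are matches of letters in short windows, and no binding was measured.

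Between 24 h and 0 h, averaged over the 5 lines with equal weight, 8 of the 10 genes passed an adjusted p of 0.05 in edgeR's quasi-likelihood test: Fgf15, Spry2, Spry4, Dusp4, Dusp6, Etv4 and Etv5 rose and Fgf17 fell, while Fgf4 and Fgf8 did not pass. The background is high: 37.8% of the 19796 genes tested passed in this average (21.7% higher and 16.1% lower). The median log2 change was 0.83 over the 10 genes and 0.04 over all genes tested. In 3 of the 10 (Dusp4, Dusp6 and Etv5) every library at 24 h was above every library at 0 h, against 4.8% of all genes tested. The order of the levels changed with this. On the TPM scale (transcripts per 1000000 transcripts, corrected for length and so comparable between genes), median levels at 24 h ran from Etv5 at 129 through Dusp6 at 94.0, Etv4 at 84.0, Fgf4 at 71.6, Spry2 at 55.3, Dusp4 at 38.9 and Spry4 at 22.7 to Fgf15 at 4.18, Fgf17 at 1.26 and Fgf8 at 0.541 TPM. At 0 h they ran from Etv5 at 78.7 through Fgf4 at 74.0, Etv4 at 47.8, Spry2 at 43.9, Dusp6 at 16.8, Spry4 at 11.1 and Fgf17 at 5.58 to Dusp4 at 1.05, Fgf15 at 0.553 and Fgf8 at 0.402 TPM. Dusp6 thus went up 3 places and Dusp4 went up 2, and neighbours such as Dusp6 and Etv4 at 24 h (60.04 to 115.5 and 34.43 to 101.3 TPM) or Etv5 and Fgf4 at 0 h (56.23 to 100.3 and 60.44 to 127.0 TPM) overlapped.

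**Figure D1:**
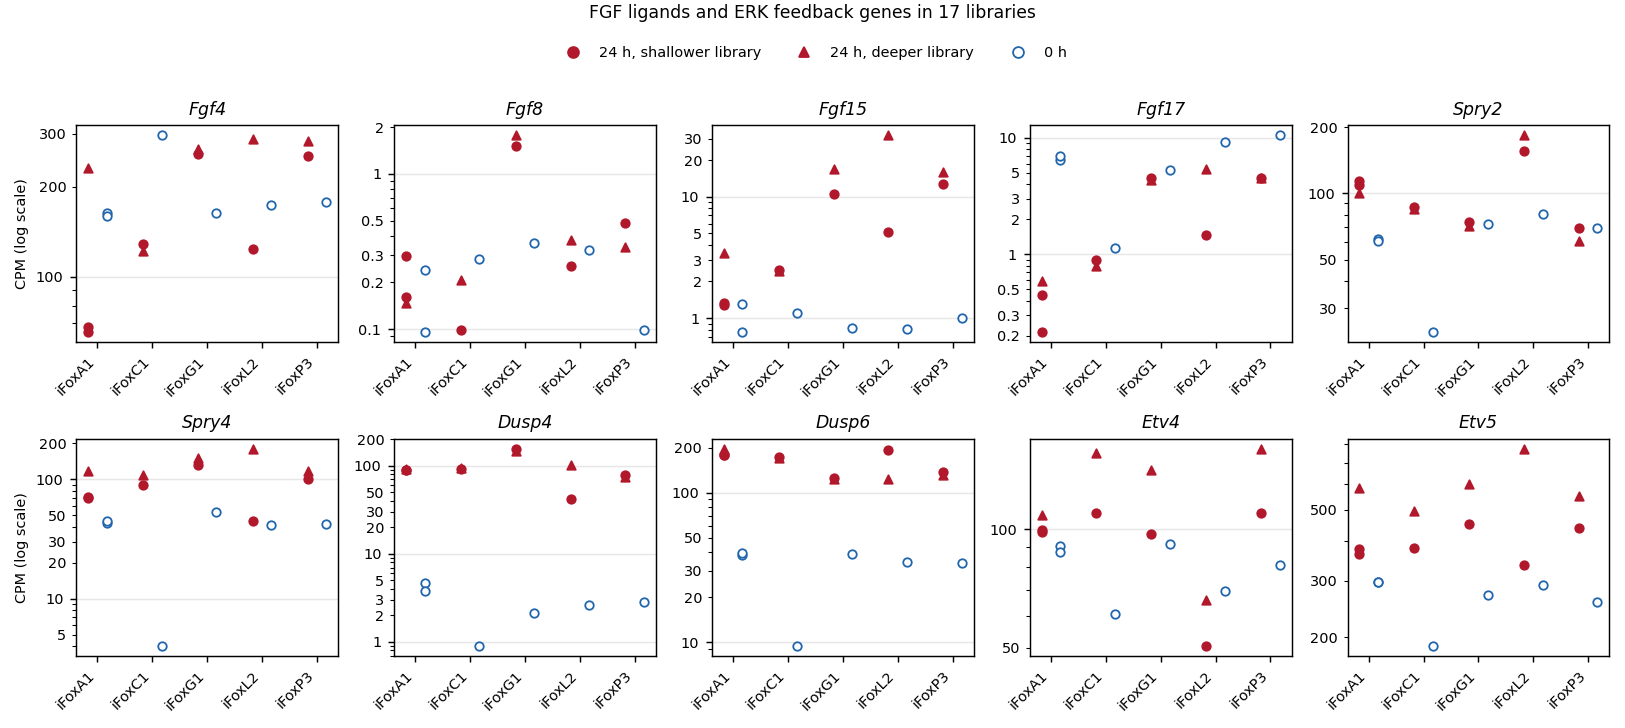
Levels of the 10 genes in CPM (log scale, a scale of its own for each gene) in each of the 17 libraries, by line, with 24 h to the left of 0 h and triangles for the deeper libraries. Dusp4, Dusp6 and Etv5 at 24 h lie above all 0 h libraries, and the iFoxC1 library at 0 h is the lowest of the 6 at 0 h for Spry2, Spry4, Dusp4, Dusp6, Etv4 and Etv5.

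The 2 phosphatases had the smallest p of the members for the average change. Dusp4 (chr8:34807297-34819894) encodes a nuclear phosphatase that removes phosphate from ERK. It was at 88.6, 88.7 and 91.3 CPM in iFoxA1, 91.4 and 95.5 in iFoxC1, 155 and 146 in iFoxG1, 42.4 and 102 in iFoxL2 and 77.7 and 75.6 CPM in iFoxP3 at 24 h, against 4.69 and 3.82 CPM in iFoxA1, 0.901 in iFoxC1, 2.16 CPM in iFoxG1, 2.65 in iFoxL2 and 2.83 CPM in iFoxP3 at 0 h. The lowest library at 24 h was well above the highest at 0 h, and the average log2 change of 5.35 ± 0.23 (SE, adjusted p = 8.69e-07, edgeR) was among the strongest by p of all genes (rank 21 of 19796). It rose in each line by itself, by 4.39 ± 0.35 in iFoxA1, 6.69 ± 0.57 in iFoxC1, 6.12 ± 0.54 in line iFoxG1, 4.77 ± 0.50 in iFoxL2 and 4.76 ± 0.50 in iFoxP3 on the log2 scale.

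Dusp6 (chr10:99263231-99267489) encodes the cytoplasmic phosphatase of ERK, the gene whose promoter stretch carries 2 Capicua octamers. It was at 178, 178 and 195 CPM in iFoxA1, 173 and 170 in iFoxC1, 125 and 123 in iFoxG1, 194 and 123 in iFoxL2 and 137 and 132 CPM in iFoxP3 at 24 h, against 38.3 and 39.6 CPM in iFoxA1, 9.48 in iFoxC1, 38.7 CPM in iFoxG1, 34.6 in iFoxL2 and 33.9 CPM in iFoxP3 at 0 h. The 24 h levels lay in a narrow band and the 0 h levels of 4 lines were nearly alike, so that the iFoxC1 library at 0 h was the one far from the rest. The average log2 change was 2.45 ± 0.11 (SE, adjusted p = 1.1e-06, edgeR), and within lines it was 2.24 ± 0.18 in iFoxA1, 4.17 ± 0.28 in iFoxC1, 1.68 ± 0.24 in line iFoxG1, 2.19 ± 0.25 in iFoxL2 and 1.99 ± 0.24 in iFoxP3. Dusp4 and Dusp6 passed in all 5 lines, and each line's call held in every run that left out 1 library and still had that line's change (17 runs for iFoxA1, 16 for each other line). No other member passed in more than 3 lines.

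The Sprouty proteins sit on the receptor side of the cascade and hold back RAS and RAF activation. Spry2 (chr14:105891947-105896819) was at 114, 109 and 101 CPM in iFoxA1, 86.8 and 85.1 in iFoxC1, 73.8 and 70.9 in iFoxG1, 157 and 184 in iFoxL2 and 69.3 and 60.5 CPM in iFoxP3 at 24 h, against 61.9 and 60.6 CPM in iFoxA1, 23.4 in iFoxC1, 72.7 CPM in iFoxG1, 80.9 in iFoxL2 and 69.9 CPM in iFoxP3 at 0 h. The times did not overlap in iFoxA1, iFoxC1 and iFoxL2, and in iFoxG1 and iFoxP3 they lay close together. Spry2 rose by 0.81 ± 0.11 on the log2 scale in iFoxA1 (adjusted p = 0.0022), by 1.88 ± 0.16 in iFoxC1 (adjusted p = 0.000436) and by 1.07 ± 0.16 in iFoxL2 (adjusted p = 0.0081), against -0.01 ± 0.15 in iFoxG1 and -0.11 ± 0.15 in iFoxP3, which did not pass (edgeR). Its average change of 0.73 ± 0.07 (adjusted p = 4.87e-05, edgeR) was 0.44 over the other 4 lines, when the iFoxC1 library at 0 h, and with it that line's change, was left out. In limma on log2(TPM + 1) the changes in iFoxA1 (adjusted p = 0.302), iFoxC1 (adjusted p = 0.0519) and iFoxL2 (adjusted p = 0.337) did not pass.

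Spry4, its relative, was at 70.1, 71.3 and 118 CPM in iFoxA1, 89.4 and 108 in iFoxC1, 131 and 152 in iFoxG1, 44.5 and 178 in iFoxL2 and 101 and 116 CPM in iFoxP3 at 24 h, against 43.2 and 44.9 CPM in iFoxA1, 4.03 in iFoxC1, 52.6 CPM in iFoxG1, 41.7 in iFoxL2 and 42.3 CPM in iFoxP3 at 0 h. Within every line the 24 h libraries were above those at 0 h, but iFoxL2 library 1 at 24 h was below the iFoxG1 library at 0 h. The average log2 change was 1.96 ± 0.29 (adjusted p = 0.000811, edgeR) and 1.29 over the other 4 lines, when the iFoxC1 library at 0 h was left out. In a single line it passed only in iFoxC1, at 4.61 ± 0.80 (adjusted p = 0.00927, edgeR), with 0.97 ± 0.47 in iFoxA1, 1.43 ± 0.66 in line iFoxG1, 1.42 ± 0.66 in iFoxL2 and 1.36 ± 0.66 in iFoxP3.

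Etv5 and Etv4 are ETS factors of the PEA3 group, long used as readouts of FGF signalling in embryos. Etv5 (chr16:22381309-22439719) was the most abundant member, at 377, 365 and 583 CPM in iFoxA1, 380 and 495 in iFoxC1, 452 and 603 in iFoxG1, 337 and 773 in iFoxL2 and 438 and 551 CPM in iFoxP3 at 24 h, against 298 and 298 CPM in iFoxA1, 188 in iFoxC1, 270 CPM in iFoxG1, 292 in iFoxL2 and 258 CPM in iFoxP3 at 0 h. All libraries at 24 h were above all at 0 h, with the deeper one highest in each line. Its average log2 change was 0.92 ± 0.20 (adjusted p = 0.00613, edgeR), and the 5 lines had 0.57 ± 0.34 in iFoxA1, 1.22 ± 0.48 in iFoxC1, 0.96 ± 0.47 in line iFoxG1, 0.93 ± 0.47 in iFoxL2 and 0.94 ± 0.47 in iFoxP3, none passing by itself.

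Etv4 (chr11:101769742-101785371) had the smallest called rise. It was at 99.7, 98.3 and 108 CPM in iFoxA1, 110 and 156 in iFoxC1, 97.0 and 141 in iFoxG1, 50.5 and 66.1 in iFoxL2 and 110 and 160 CPM in iFoxP3 at 24 h, against 90.8 and 87.5 CPM in iFoxA1, 60.9 in iFoxC1, 91.8 CPM in iFoxG1, 69.5 in iFoxL2 and 81.2 CPM in iFoxP3 at 0 h. Both iFoxL2 libraries at 24 h were below the iFoxL2 library at 0 h, while each other line was higher at 24 h. The average log2 change of 0.43 ± 0.13 (adjusted p = 0.0275, edgeR) lost its call when any 1 of 6 libraries was left out (either iFoxA1 library at 0 h, the iFoxC1 or iFoxP3 library at 0 h, or library 2 of iFoxC1 or iFoxP3 at 24 h), with an adjusted p of up to 0.194, reached over the other 4 lines when the iFoxC1 library at 0 h was left out.

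Among the ligands the members moved in different directions. Fgf4 (chr7:144847367-144865243), the ES cell ligand, was at 65.2, 67.6 and 231 CPM in iFoxA1, 129 and 122 in iFoxC1, 256 and 266 in iFoxG1, 123 and 289 in iFoxL2 and 253 and 284 CPM in iFoxP3 at 24 h, against 163 and 159 CPM in iFoxA1, 297 in iFoxC1, 163 CPM in iFoxG1, 174 in iFoxL2 and 177 CPM in iFoxP3 at 0 h. In iFoxG1 and iFoxP3 both 24 h libraries were above 0 h and in iFoxC1 both were below, while iFoxA1 and iFoxL2 had libraries on either side. On average the log2 change was -0.02 ± 0.30 (adjusted p = 0.979, edgeR), and it changed sign when 1 of several libraries was left out. With the shallower libraries alone it was -0.36. No weight can be put on a p there: 4 lines then have 1 library at each time, and the spread comes from 2 pairs of iFoxA1 libraries, with a chi-square per gene of 2.79 and 3.31 against 78.6 to 206 in the other pairs of a group. Without iFoxA1 library 3 and iFoxL2 library 2 at 24 h, an alternative chosen after seeing the data that keeps those 2 close pairs, it was -0.34 (adjusted p = 0.000409, edgeR).

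Fgf15 (chr7:144896531-144900953), a ligand of the endocrine subfamily, lies next to Fgf4 on the same strand. It was at 1.34, 1.29 and 3.43 CPM in iFoxA1, 2.48 and 2.45 in iFoxC1, 10.5 and 17.0 in iFoxG1, 5.08 and 31.9 in iFoxL2 and 12.7 and 16.0 CPM in iFoxP3 at 24 h, against 0.766 and 1.31 CPM in iFoxA1, 1.09 in iFoxC1, 0.822 CPM in iFoxG1, 0.812 in iFoxL2 and 0.993 CPM in iFoxP3 at 0 h. The 0 h libraries were all low, at 0.766 to 1.31 CPM, and the 24 h libraries fell into 2 ranges, with iFoxA1 and iFoxC1 below 4 CPM and the other 3 lines above 5 CPM. The average log2 change was 2.91 ± 0.47 (adjusted p = 0.00124, edgeR). The single-line changes were 4.06 ± 1.16 in iFoxG1 (adjusted p = 0.0779), 4.51 ± 1.19 in iFoxL2 (adjusted p = 0.0676), 3.85 ± 1.14 in iFoxP3 (adjusted p = 0.0795), 0.98 ± 0.74 in iFoxA1 and 1.17 ± 1.01 in iFoxC1 (edgeR), and none passed. Those of iFoxG1, iFoxL2 and iFoxP3 lay near the threshold: iFoxG1 passed in 7 of 11 alternatives and the others in 6 of 11 each.

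Fgf17 (chr14:70636203-70642268), a ligand of the FGF8 subfamily, was the member that fell. It was at 0.446, 0.215 and 0.591 CPM in iFoxA1, 0.893 and 0.796 in iFoxC1, 4.48 and 4.30 in iFoxG1, 1.47 and 5.36 in iFoxL2 and 4.50 and 4.49 CPM in iFoxP3 at 24 h, against 6.46 and 6.97 CPM in iFoxA1, 1.14 in iFoxC1, 5.29 CPM in iFoxG1, 9.25 in iFoxL2 and 10.5 CPM in iFoxP3 at 0 h. In each line the 24 h libraries were below those at 0 h, by a wide gap in iFoxA1 and a small one in iFoxC1 and iFoxG1. Over the lines the log2 change averaged -1.46 ± 0.27 (adjusted p = 0.00264, edgeR). In iFoxA1 it was -3.95 ± 0.52 (adjusted p = 0.00161, edgeR), and no other line passed.

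Fgf8 (chr19:45736798-45742915), the ligand of the primitive streak and isthmus, was close to the limit of detection. It had 6, 3 and 5 counts in iFoxA1, 2 and 7 in iFoxC1, 30 and 61 in iFoxG1, 5 and 12 in iFoxL2 and 10 and 11 counts in iFoxP3 at 24 h, against 2 and 5 counts in iFoxA1, 6 in iFoxC1, 7 counts in iFoxG1, 6 in iFoxL2 and 2 counts in iFoxP3 at 0 h. Only the 2 iFoxG1 libraries at 24 h stood clear of the rest. The average log2 change of 0.71 ± 0.35 did not pass (adjusted p = 0.137, edgeR), and nor did the change within iFoxG1, 2.18 ± 0.79 (adjusted p = 0.151, edgeR).

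Within single lines, 15 of the 50 tests passed (each of the 10 genes in each of the 5 lines). In iFoxA1 4 members passed, against 10.8% of all genes, and in iFoxC1 4 passed, against 9.73%. In iFoxL2 3 passed against 4.23% of all genes, in iFoxG1 2 against 5.64% and in iFoxP3 2 against 6.05%. Of these 15, 14 were rises and 1 was the fall of Fgf17 in iFoxA1. The number rested on which libraries were used: it was 38 with the shallower libraries alone, where the spread comes from the 2 close iFoxA1 pairs, and 32 without iFoxA1 library 3 and iFoxL2 library 2 at 24 h.

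**Figure D2:**
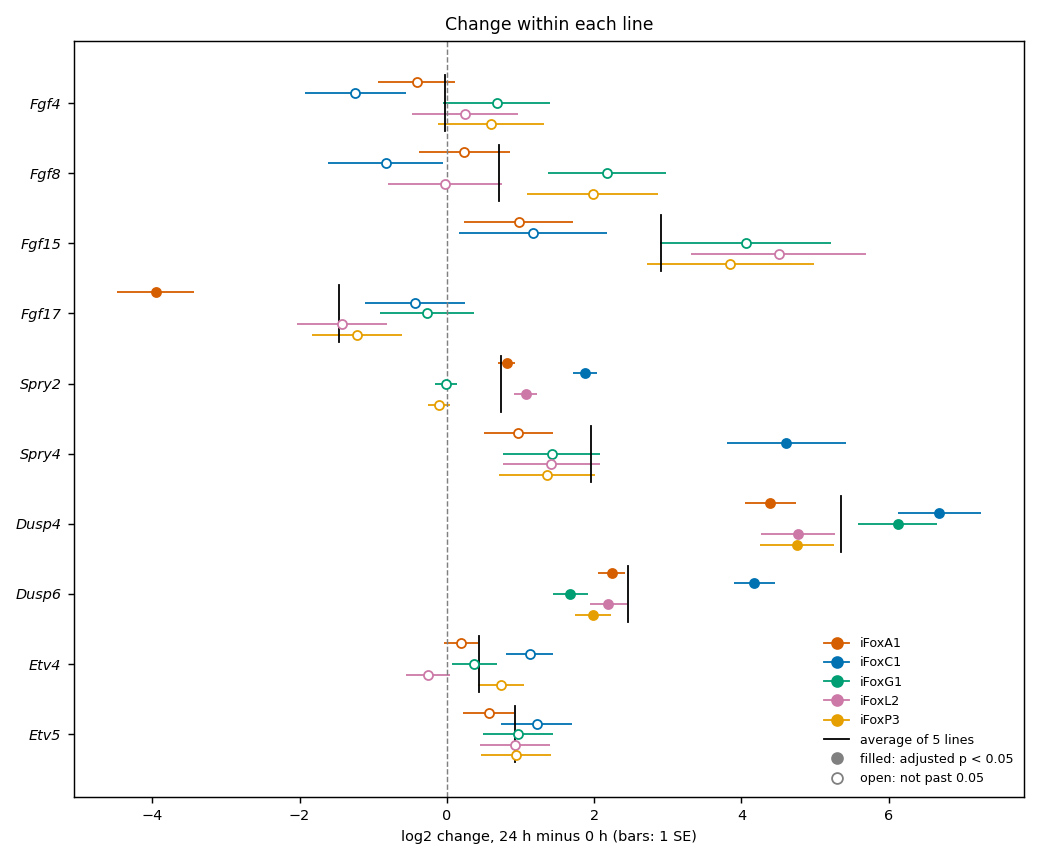
Log2 change of each gene, 24 h minus 0 h, within each of the 5 lines (points, with bars of 1 SE) and averaged over the lines (black lines); filled points passed an adjusted p of 0.05. Dusp4 and Dusp6 were filled in all 5 lines, Spry2 in iFoxA1, iFoxC1 and iFoxL2, Spry4 in iFoxC1 and Fgf17 in iFoxA1.

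Whether the change itself differed among the lines was tested with 1 F test per gene over the 5 changes. Spry2 (adjusted p = 0.0111) and Dusp6 (adjusted p = 0.0324) passed in edgeR, 2 of 10 members against 1% of all genes. Set against the mean of the other 4 lines, the change in iFoxC1 was larger by 1.43 ± 0.17 for Spry2 (adjusted p = 0.0104) and by 2.15 ± 0.27 for Dusp6 (adjusted p = 0.0125) on the log2 scale (edgeR; 1.08% of all genes passed). Spry4 had 3.32 ± 0.79 there and did not pass (adjusted p = 0.0865). In iFoxA1 the change of Fgf17 was below that of the other lines, with a difference of -3.12 ± 0.60 (adjusted p = 0.0294, edgeR; 3.09% of all genes passed). No member passed in iFoxG1, iFoxL2 or iFoxP3, where 0.111%, 0.00505% and 0% of all genes did. Both iFoxC1 differences lost their call without either iFoxC1 library at 24 h (adjusted p = 0.0726 and 0.0733), and that of Fgf17 lost it in 11 of 17 runs that left out 1 library.

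The larger changes of iFoxC1 went with its 0 h library. There the 2 called members were far lower than in the other lines: Spry2 at 23.4 CPM in iFoxC1, against 60.6 to 80.9 CPM in the 5 other libraries at 0 h, a log2 difference of -1.60 ± 0.15 (adjusted p = 0.00358, edgeR), and Dusp6 at 9.48 CPM in iFoxC1, against 33.9 to 39.6 CPM, a difference of -1.94 ± 0.23 (adjusted p = 0.006, edgeR). In all, 7 of the 10 members were below and 1, Fgf4, was above every other library at 0 h. The share of all genes outside the range of the other libraries was not computed, so this count has no background. Most of the other feedback inhibitors listed below were also outside that range, some below it and some above, so the count is not shown to be particular to the members. Spry4 at -3.48 ± 0.73 (adjusted p = 0.0501), Fgf17 at -2.75 ± 0.72 (adjusted p = 0.0966) and Dusp4 at -1.67 ± 0.45 (adjusted p = 0.106) did not pass (edgeR). Spry4 lay at the threshold: it passed in all 11 alternatives (adjusted p up to 0.0457) and in 3 of 16 runs that left out 1 library. In limma on log2(TPM + 1) the difference of Spry2 did not pass (adjusted p = 0.113). Of all genes 1.76% passed in this comparison. Spry2 and Dusp6 were also the members that passed an F test among the 5 lines at 0 h (adjusted p = 0.0192 and 0.0433, edgeR; 0.495% of all genes).

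Of 20 other genes listed as ERK-responsive, 5 were lower in iFoxC1 at 0 h than in the other lines, none was higher and 15 did not pass. The list is mixed and not only of genes that ERK switches on: it holds Cic, the gene of the repressor Capicua, and Tbx3. The 5 were Myc at -4.10 ± 0.37, Phlda1 at -1.52 ± 0.20, Ier2 at -1.09 ± 0.21, Ccnd1 at -0.99 ± 0.19 and Etv1 at -0.92 ± 0.16 on the log2 scale, with a list median of -0.69 against -0.01 over all genes. Myc, the proliferation factor, was at 1.66 CPM in iFoxC1, against 24.4 to 30.1 CPM in the 5 others. Of those that did not pass, Ier3, at 24.7 CPM in iFoxC1 against 3.78 to 6.75 CPM, and Fos, at 1.23 CPM against 0.574 to 0.794 CPM, were above every other library at 0 h (chosen after their values were seen). Of 16 other feedback inhibitors none passed (median -0.11). Among 8 ES cell genes none was higher and 1 was lower (median -0.27), Lin28a, at 114 CPM in iFoxC1 against 276 to 335 CPM. The other ES cell genes did not pass and lay on both sides. Nanog, at 1312 CPM in iFoxC1 against 579 to 656 CPM, and Sox2, at 308 CPM against 245 to 263 CPM, were above every other library at 0 h. Pou5f1, Utf1 and Zfp42 were below every other one, and Dppa5a and Esrrb were within their range. Of 8 formative epiblast genes 2 were lower, among them the methyltransferase Dnmt3b, at 91.8 CPM in iFoxC1 against 260 to 304 CPM. These are values of 1 library, so the line, its culture and its library cannot be told apart. At 24 h iFoxC1 stood apart for no member (3.69% of all genes passed).

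**Figure D3:**
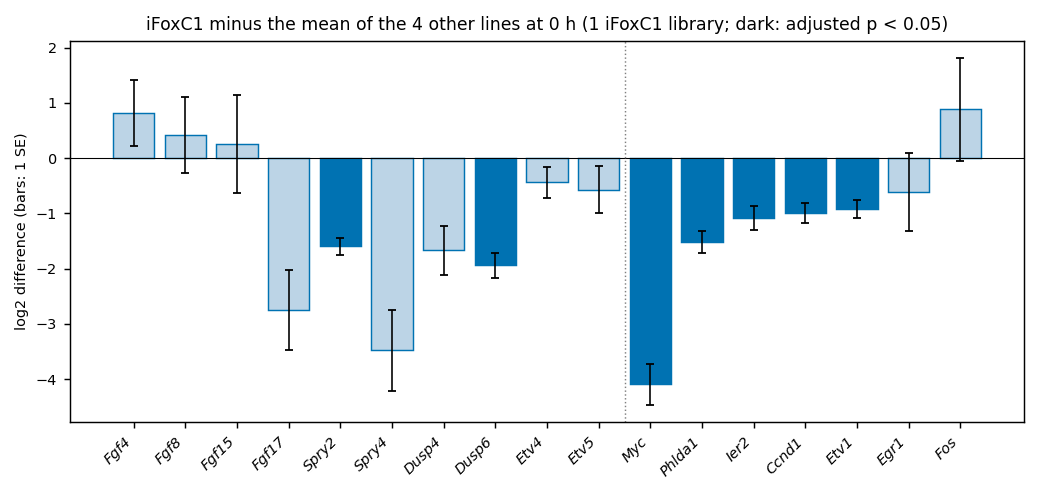
Log2 difference of the 1 iFoxC1 library at 0 h from the mean of the 4 other lines at 0 h (bars of 1 SE). The 10 members are left of the dotted line and 7 other genes listed as ERK-responsive are right of it. Dark bars passed an adjusted p of 0.05. The 7 are the 5 of 20 listed genes that passed, with Egr1 and Fos, so they do not stand for the list. Listed genes such as Ier3, Elk1 and Ets2, which were above every other library at 0 h, are not drawn. Spry2 and Dusp6 passed among the members, and Egr1 and Fos, at the right, did not pass.

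At 24 h, 5 of the 10 members differed among the lines by the F test, against 13.1% of all genes: Fgf8 (adjusted p = 0.0134), Fgf15 (adjusted p = 0.0348), Fgf17 (adjusted p = 0.00722), Spry2 (adjusted p = 0.000513) and Etv4 (adjusted p = 0.0478, all edgeR). In iFoxA1 the ligands Fgf17, at -2.67 ± 0.44 (adjusted p = 0.00351), and Fgf15, at -2.25 ± 0.58 (adjusted p = 0.0285), were lower than the mean of the other 4 lines on the log2 scale (edgeR, with 15.1% of all genes passing). In the same comparison all 8 primitive endoderm markers were higher in iFoxA1, and 5 of 8 formative epiblast markers were lower and none higher. Of 9 other FGF ligands, 3 were higher and 1 was lower. At 0 h, Fgf17 (0.45 ± 0.45) and Fgf15 (0.17 ± 0.71) did not pass in iFoxA1. A link between these lists and the 2 ligands was not tested. Low levels of Fgf15 and Fgf17 were shared with iFoxC1. Its libraries had Fgf15 at 2.48 and 2.45 CPM, below iFoxA1 library 3 at 3.43 CPM, and Fgf17 at 0.893 and 0.796 CPM. The Fgf15 call was lost without any 1 of 6 libraries at 24 h (iFoxA1 library 1 or 2, iFoxC1 library 1 or 2, iFoxG1 library 2 or iFoxP3 library 2; adjusted p up to 0.123), and the Fgf17 call in none.

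Spry2 split the other lines at 24 h. Against the mean of the 4 other lines, it was higher in iFoxL2, at 1.07 ± 0.09 (adjusted p = 0.00147, with 1.64% of all genes passing). It was lower than that mean in iFoxG1, at -0.47 ± 0.10 (adjusted p = 0.037, with 2.74% of all genes passing), and in iFoxP3, at -0.67 ± 0.10 (adjusted p = 0.0221, with 0.561% of all genes passing; log2 scale, edgeR). Both of the latter means include iFoxL2, at 157 and 184 CPM. Spry2 in iFoxG1, at 73.8 and 70.9 CPM, was above iFoxP3, at 69.3 and 60.5 CPM. The difference in iFoxL2 held in all 17 runs that left out 1 library but not in limma on log2(TPM + 1) (0.99, adjusted p = 0.227), and those in iFoxG1 and iFoxP3 held in 7 runs. Fgf8 was higher in iFoxG1 by 2.67 ± 0.40 (adjusted p = 0.00784, edgeR), a call lost without either iFoxG1 library at 24 h. Etv4 was lower in iFoxL2, at -1.06 ± 0.21 (adjusted p = 0.044, edgeR), which held in 5 of 17 runs.

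The libraries of a group did not always lie together, and the members showed it. In iFoxL2 at 24 h, library 2 had the lower Foxl2 level and was in the deeper set. It was above library 1 for 9 of the 10 members and below it for Dusp6. The share of all genes above library 1 was not computed, so this count has no background. These libraries also differed the most of all pairs of a group (chi-square per gene of 206). The largest gaps were Fgf15 at 31.9 and 5.08 CPM and Spry4 at 178 and 44.5 CPM in libraries 2 and 1. In iFoxA1 at 24 h, library 3, with the lower Foxa1 level, had Fgf4 at 231 CPM against 65.2 and 67.6 CPM in libraries 1 and 2, and Spry4 at 118 CPM against 70.1 and 71.3 CPM. Nanog was at 209 and 94.2 CPM in iFoxL2 libraries 2 and 1, and at 297 CPM in iFoxA1 library 3, against at most 51.2 CPM in libraries 1 and 2. Across the 5 lines at 24 h, the deeper set was higher than the shallower set for Etv4, by 0.39 ± 0.08 (adjusted p = 0.0148), and Etv5, by 0.58 ± 0.12 (adjusted p = 0.0127; log2 scale, edgeR), 2 of 10 members against 20.9% of all genes tested there. In limma on log2(TPM + 1) the same differences were -0.01 for Etv4 and 0.09 for Etv5, and neither passed.

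The transcripts of Etv5 differed in the same libraries. The main transcript starts at base 22439719 of chromosome 16, and a second protein-coding one, Etv5-203 (chr16:22381316-22436514), starts further downstream, at base 22436514. Etv5-203 made up 0.55, 0 and 10.8% of Etv5 TPM in iFoxA1 libraries 1, 2 and 3, 0.45 and 7.47% in iFoxC1, 0 and 2.83% in iFoxG1, 0 and 34.6% in iFoxL2 and 0 and 1.71% in iFoxP3 at 24 h, against 38.8 and 27.7% in iFoxA1, 26.1% in iFoxC1, 6.08% in line iFoxG1, 18.2% in iFoxL2 and 15.5% in iFoxP3 at 0 h. The 6 shallower libraries at 24 h, at 0 to 0.55%, were below all 6 at 0 h, at 6.08 to 38.8%, while the 5 deeper ones at 24 h, at 1.71 to 34.6%, overlapped with them. In each line the share in the deeper library was above that in the shallower ones. Salmon assigns reads shared by both transcripts by estimate, the error of that split is not in the tables used, and no test was run.

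**Figure D4:**
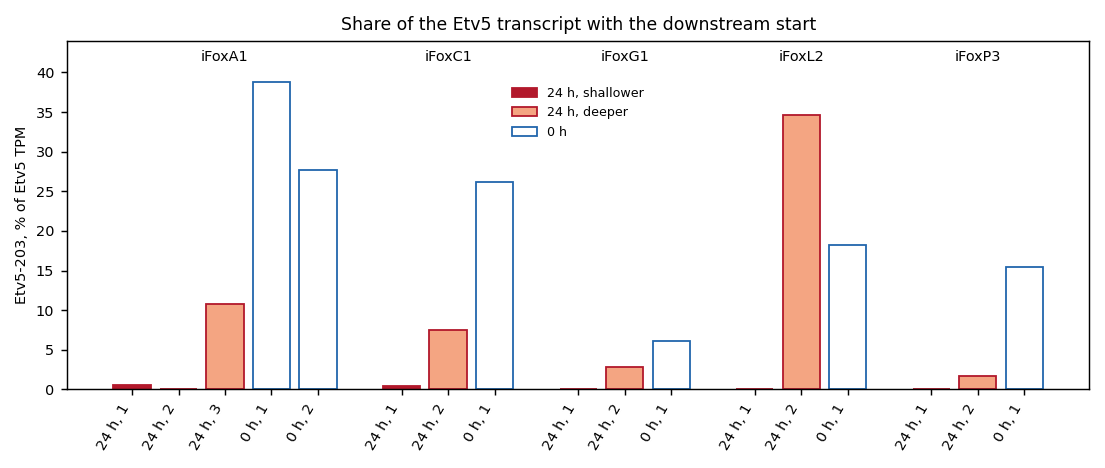
Share of Etv5-203 in the summed Etv5 TPM (percent) in each library, by line, with 24 h libraries left of those at 0 h. Dark bars (24 h, shallower) are at most 0.55%, pale bars (24 h, deeper) reach 34.6% in iFoxL2 library 2, and white bars (0 h) lie between 6.08 and 38.8%.

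A short transcript of Dusp6 without a coding region, Dusp6-203, followed depth too. It made up 36.3 to 40.2% of Dusp6 TPM in the 5 deeper libraries at 24 h and 10.1 to 25.4% in the 6 shallower ones, against 0 to 19.0% at 0 h. The main coding transcript of Dusp6 made up 53.3 to 57.0% in the deeper libraries at 24 h and 73.5 to 87.5% in the shallower ones, against 79.2 to 96.8% at 0 h. Dusp6 TPM levels are affected by this split, since the shorter transcript weighs more per read.

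The rest of the pathway, taken from lists of known genes, moved in part in the average over the lines, where 37.8% of all genes passed. Of the other FGF ligands 9 of 18 were testable, and 2 rose and 1 fell, a share not above that of all genes. Fgf5, a marker of the formative epiblast, was at 3.27, 3.38 and 3.05 CPM in iFoxA1, 8.88 and 7.84 in iFoxC1, 29.2 and 27.2 in iFoxG1, 9.00 and 23.2 in iFoxL2 and 31.6 and 26.5 CPM in iFoxP3 at 24 h, against 0.298 CPM or less in all 6 libraries at 0 h; its log2 change was 6.73 ± 0.34 (adjusted p = 1.95e-06, edgeR). The 3 iFoxA1 libraries were the lowest for Fgf5 at 24 h. Fgf1 rose by 2.85 ± 0.23 and Fgf10 fell by 3.53 on the log2 scale. Fgf14, which had no finite standard error, was left out of that list's median of 0.36.

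Of 16 receptors and co-receptors 8 rose and 3 fell (median 0.51). Fgfr2, a receptor, rose by 2.65 ± 0.23 and the heparan sulphate carrier Sdc4 by 1.50 ± 0.11, while Flrt1, at -1.77 ± 0.37, and Klb, the co-receptor for endocrine FGFs, at -1.05 ± 0.36, fell. The fall of Klb was not shared by iFoxA1, at 10.2, 10.6 and 9.79 CPM at 24 h against 8.18 and 7.79 CPM at 0 h. In the other lines Klb was at 1.84 CPM or less at both times. Of 24 adaptors and kinases of the cascade 8 rose and 1 fell (median 0.22), a share not above the 37.8% of all genes. The rises were small, such as Sos1 at 0.51 ± 0.05 and Braf at 0.52 ± 0.12, and the fall was Mras, a RAS relative, at -4.50 ± 0.21 (adjusted p = 1.54e-06, edgeR).

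Of 16 other feedback inhibitors 12 rose and none fell (median 0.69). Errfi1, which inhibits the EGF receptor, rose by 1.70 ± 0.16, the ERK phosphatase Dusp9 by 1.24 ± 0.14, Spred1 by 1.07 ± 0.12 and the RAS inhibitor Nf1 by 0.73 ± 0.08 on the log2 scale. Of 20 other ERK-responsive genes 10 rose and 3 fell (median 0.57). Egr1, an immediate early factor, rose by 3.89 ± 0.33, Phlda1 by 2.52 ± 0.09, Myc by 2.05 ± 0.14 and Jun by 1.93 ± 0.18. Tbx3, a naive pluripotency factor, fell by 2.13, with 122 CPM in iFoxA1 library 3 and 112 CPM in iFoxL2 library 2 at 24 h against 5.69 to 33.8 CPM in the other 24 h libraries.

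**Figure D5:**
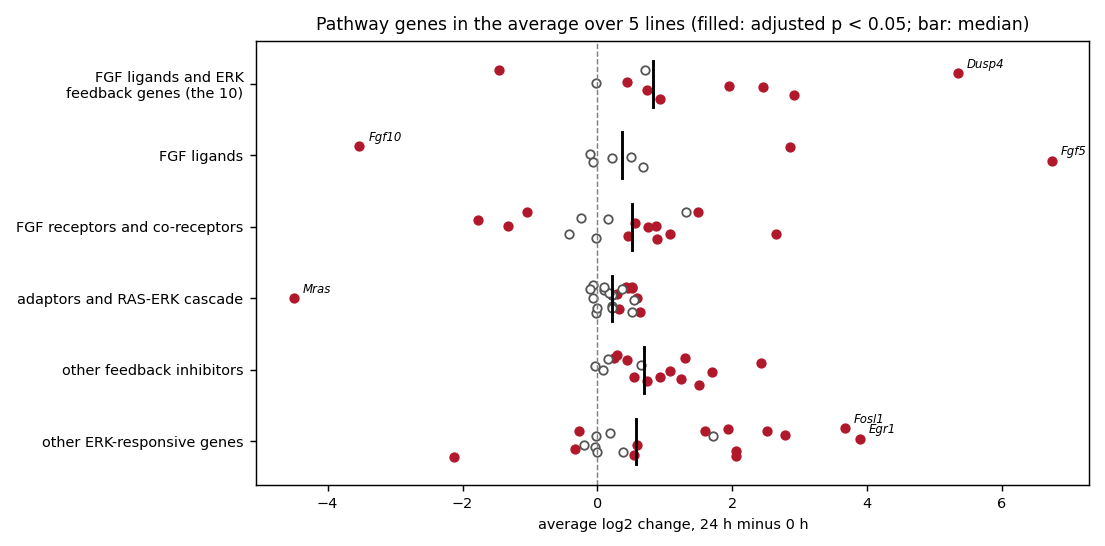
Average log2 change, 24 h minus 0 h, of the 10 members and of the genes in 5 pathway lists (1 point per gene; filled, adjusted p under 0.05; vertical bar, median of the list). The medians lie between 0.22 for the cascade and 0.83 for the members, and Fgf14 is not drawn because its fit had no finite standard error.

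Genes most like the members over the 17 libraries, by Pearson's r of log2 CPM among 10208 protein-coding genes, are given as a description only, because libraries share lines, times and depth. Dusp4 was closest to Nav2 (r = 0.99) and Sestd1 (r = 0.99), Dusp6 to Pon2 (r = 0.97) and Esrp1 (r = 0.96), and Spry4 to Zfp532 (r = 0.95) and Bnc2 (r = 0.95). Within the 11 libraries at 24 h alone, r was 0.86 for Nav2 and 0.30 for Sestd1 with Dusp4, and 0.42 for Pon2 and 0.27 for Esrp1 with Dusp6. Fgf4 was closest to Prkdc (r = 0.94) and Slc45a4 (r = 0.92), Fgf15 to Parp10 (r = 0.95) and Arhgap22 (r = 0.95), Fgf17 to Slc4a5 (r = 0.92) and Zfp41 (r = 0.91), Etv4 to Tbl3 (r = 0.93) and Psmd3 (r = 0.92), and Spry2 to Ints6 (r = 0.89) and Sco2 (r = 0.87). No gene reached 0.9 with Fgf8 or Spry2. Among the members themselves the highest values were 0.94 for Dusp4 and Dusp6, 0.88 for Spry4 and Etv5 and 0.85 for Dusp4 and Etv5.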

How the data were processed

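PolyA RNA of 17 libraries was sequenced after strand-specific preparation, per the labels' protocols. The authors deposited 1 table of estimated (expected) counts and 1 table of TPM values per transcript; per the submitters' processing notes, Salmon 1.4.0, DESeq2 1.30.1 and build mm10 were used, with no annotation release named. Of 137271 transcripts 137225 matched GENCODE mouse M21 by identifier (136349 with the same version). Estimated counts were summed per gene symbol and rounded, and deposited TPM values were summed per symbol. Every pair of libraries of a group differed by more than sampling noise.

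The main test was edgeR 4.0.16 (R 4.3.3): quasi-likelihood, TMM factors, filterByExpr, 10 groups of line and time with 7 residual degrees of freedom, and Benjamini-Hochberg adjustment over the 19796 genes tested (18032 for the comparison of depth sets, fitted over the 24 h libraries with line as a term). Groups with 1 library were taken to vary like the others. A gene was called at an adjusted p under 0.05. The test itself gives no standard error. Those printed with edgeR values were derived as the absolute log2 change divided by the square root of the test's F, so they are approximate. CPM values are on TMM-scaled library sizes. Alternatives were DESeq2 1.42.0, limma 3.58.1 on log2(TPM + 1), other factors and filters, protein-coding transcripts, library sets, a replicate block and leaving out each library. The members, lists and tests were chosen with earlier results of these data known. The lists are textbook pathway genes and markers; from each, up to 4 rising and 4 falling genes with the smallest adjusted p could be named, and for each member the 2 most similar protein-coding genes with a mean of 5 CPM or more at one of the times. Those most like Fgf8 and Etv5 are not reported here. In other comparisons only some of the lists are given, and not every listed gene that passed is named. The scripts were tested on simulated data.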

Additional observations from a re-analysis of the deposited data

Results flagged for a closer look

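The change between 24 h and 0 h differed among the 5 lines for 2 members, by the F test in edgeR: Spry2 (adjusted p = 0.0111) and Dusp6 (adjusted p = 0.0324). Set against the mean of the 4 other lines, the change in iFoxC1 was higher for Spry2 by 1.43 and for Dusp6 by 2.15 on the log2 scale. The change of Fgf17 in iFoxA1 differed from that mean by -3.12. In iFoxC1 the 0 h value is 1 library. No group of the labels had 4 or more libraries, so no library was examined as an outlier within its group.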

How the results depend on the processing

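The count of 8 members called in the average change stayed between 7 and 9 under the 11 alternatives and between 7 and 8 when 1 library was left out. With the shallower libraries alone, 38 single-line calls passed (15 in the main analysis), 8 members differed at 0 h (2), 10 at 24 h (5) and 9 in their change (2); there the spread comes only from 2 close pairs of iFoxA1 libraries, so these counts say nothing of stability. Without iFoxA1 library 3 and iFoxL2 library 2, an alternative chosen after seeing the data, these were 32, 6, 8 and 7, and the depth sets differed for 4 members (2). With DESeq2's test, 4 differed at 0 h, 5 in their change and 5 between the depth sets; with limma these were 0, 0 and 1. Protein-coding transcripts alone gave 1 each, DESeq2's size factors gave 1 at 0 h, upper-quartile factors gave 1 at 0 h and 1 in their change, and no filter gave 5 between the depth sets. Leaving out 1 library gave 11 (without iFoxC1 at 0 h, which leaves 4 lines) to 24 (without iFoxL2 library 1 at 24 h) single-line calls, 0 (without iFoxA1 library 1 at 0 h) to 4 at 0 h, 2 (without iFoxG1 library 2) to 7 at 24 h, 0 (without iFoxA1 library 1 at 0 h) to 5 in their change and 2 to 3 between depth sets. The cause was not tested.

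The sign turned for Fgf4's average change: it was 0.0129 with no filter and ran from -0.210 (without iFoxG1 at 0 h) to 0.278 (without iFoxC1 at 0 h) with 1 library left out (a library that is alone at 0 h takes its line's change out of the average), above 0 also without iFoxA1 library 1 or 2 or iFoxL2 library 1 at 24 h. It turned for Etv4 between depth sets too (-0.00886, limma). Over all single values, 1062 kept their direction and side of the threshold, 77 lost the call, 49 gained one and 6 turned. Replicate numbers were shared between lines at 24 h, but 4 of 20 same-number pairs deviated in opposite directions (r from -0.57 to -0.51). All 4 were with iFoxA1 library 2, a shallower library that shares its number with deeper ones. The other 16 had r of 0.49 to 0.76, but they are not 16 separate values. In lines with 2 libraries the deviations from the group mean mirror each other, so r for number 2 repeats that for number 1. By number the libraries do not pair the samples, and the pairs that deviate together share a depth set. With the replicate block 7 members passed in the average, 21 in single lines, 2 at 0 h, 6 at 24 h and 2 in their change. With the library set as a term, Fgf15 passed in iFoxG1 (adjusted p = 0.028), iFoxL2 (0.0304) and iFoxP3 (0.0266), and Spry4 (0.00852) and Fgf17 (0.0311) in iFoxC1 at 0 h. The comparison of depth sets has no value with a block, a set term or shallower libraries alone. With 1 library at 0 h in 4 lines, single-line changes carry larger standard errors than the average, and Fgf8, at 2 to 7 counts at 0 h, is limited by depth.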
